A study of Mus musculus with 8 samples.

Results

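Heat shock proteins are molecular chaperones that bind unfolded or partly folded proteins and return them to a working shape. The 10 genes described here are heat shock proteins and co-chaperones: Hspb1, Dnaja4, Hspa1a, Hspa1b, Hspa8, Dnajb1, Hsph1, Hsp90aa1, Hspd1 and Hspe1. All 10 were found by symbol among the 48440 genes of the deposited table. They were selected on their measured difference between conventionalized and germ-free animals, to set Hspb1 and Dnaja4 against the others, so those differences are given as a description without a test. Hspd1 and Hspe1 do not belong to the cytosol: they encode the mitochondrial chaperonin and its lid, and were kept because the list names them.

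The conventionalized group (CV) held 4 females carrying Sox9-EGFP on C57BL/6J that were first germ-free, were moved to another animal house at 8 to 10 weeks of age, received a fecal slurry from conventionally raised Sox9-EGFP mice by gavage, and were studied 2 weeks later. The germ-free group (GF) held 4 female Sox9-EGFP littermates of the same background that stayed germ-free, 1 for each of the littermate pairs A to D. Each library came from jejunal epithelial cells sorted for a low signal of the Sox9-EGFP reporter, after removal of cells stained by Annexin-V, Sytox-blue, CD31 or CD45. The move between animal houses and the arrival of microbes cannot be told apart in this design. The comparison asks what conventionalization, with the move, does to this fraction, which the sort was meant to enrich for stem cells. Marker levels of stem and enteroendocrine cells in it were not alike between the groups, as given below. Values are CPM, the deposited signal scaled to a common library total with TMM factors, and a fold change is the log2 ratio of CV to GF on the CPM + 0.5 scale, with its standard error (SE) from limma. The SD is over n = 4 animals in each group.

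Chaperones work as a relay. J-domain proteins such as Dnajb1 and Dnaja4 bring clients to HSP70 (Hspa8, Hspa1a, Hspa1b) and start its ATP cycle, Hsph1 ends that cycle by exchanging the nucleotide, HSP90 (Hsp90aa1) takes over late folding steps, and small heat shock proteins such as Hspb1 hold unfolded proteins without using ATP. Heat and other protein-damaging stress induce many of these genes through heat shock factor 1, which binds repeated 5-base units of the type nGAAn that face each other in turn, the heat shock element. In the intestine Hspb1 and the inducible HSP70s have been studied as cytoprotective proteins of the epithelium.

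Upstream letters of 4 genes are shown because they place Hspb1 and Dnaja4 beside an inducible HSP70 gene and the chaperonin genes. Capitals mark the letters searched, with 20 bases on each side. Sequences are RefSeq's on GRCm38.p6, 5′ to 3′ on the strand of the gene. They come from Hspb1 (chr5:135887782-135887849, plus strand), Dnaja4 (chr9:54699449-54699534, plus strand, before the second of its RefSeq starts and partly inside an exon of another Dnaja4 transcript), Hspa1b (chr17:34959315-34959362, minus strand) and Hspe1 (chr1:55088039-55088096, plus strand, partly inside an exon of an Hspd1 transcript).
Hspb1: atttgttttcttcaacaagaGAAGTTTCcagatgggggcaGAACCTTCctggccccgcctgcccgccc
Dnaja4: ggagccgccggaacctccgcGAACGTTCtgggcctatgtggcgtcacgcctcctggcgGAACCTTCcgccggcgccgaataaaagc
Hspa1b: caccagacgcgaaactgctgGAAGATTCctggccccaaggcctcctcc
Hspe1: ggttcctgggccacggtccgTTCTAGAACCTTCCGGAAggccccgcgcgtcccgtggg

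The search covered the 250 bases before each RefSeq start and used 2 forms. The shorter form has 2 units (GAANNTTC or TTCNNGAA, each its own reverse complement). The longer form has 3 units, the shorter form carried on after 2 more bases by another GAA or TTC, and was read on both strands, so every longer match also holds the shorter. Of 32851 windows in the mouse table, 0.466% held the longer form and 12.8% the shorter. Windows were found for 8 of the 10 genes, all but Hspa8 and Hsp90aa1. The longer form was present for Hspd1 and Hspe1, which lie head to head on chromosome 1, and it is the same run of letters read from the 2 sides. The run starts 89 bases before the Hspe1 start and 144 bases before an Hspd1 start, and holds 2 overlapping matches. The capitals for Hspe1 mark both. Hspb1 held the shorter form at 117 and 97 bases before its start, and Dnaja4 at 90 and 52 bases before the second of its starts only. Hspa1a and Hspa1b each held it at 104 bases, and Hsph1 at 33 bases before 1 of its starts. No match was found in the Dnajb1 windows, which says only that these letters are not there. The shorter form was thus held by 7 of the 8 genes with a window, so it was not particular to Hspb1 and Dnaja4. The Hspa1a and Hspa1b windows were the same at 247 of 250 bases.

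The libraries held 6209041 to 19139683 reads on the approximate scale. The GF library of pair C had the lowest depth and a median correlation of 0.792 across genes with the rest of its group, against 0.871 to 0.943 for the others. It and the CV library of pair A, which stood apart on goblet cell markers, are left out below where a result rests on them. Sox9, the gene behind the sort, was at 137 to 517 CPM. None of 12 leukocyte markers passed the filter (summed 9.74 to 30.0 CPM in CV and 20.5 to 29.3 CPM in GF libraries), nor did 8 mesenchymal markers. Endothelial markers summed to 5.49 to 32.8 CPM in CV and 33.2 to 50.1 CPM in GF libraries. Goblet cell markers summed to 49770 CPM in the CV library of pair A and to 1410 to 8035 CPM in the others.

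The genes were chosen to show a split within the family, and these are its values. Hspb1 and Dnaja4 were about 5 times lower in CV than in GF libraries, with groups that did not overlap, while the other 8 genes had log2 fold changes from 0.07 to 1.28 and overlapping groups. Among all 10053 tested genes (at least 10 CPM in at least 4 libraries), 5.88% had all CV libraries below all GF libraries, beside 2 of the 10 here, and 9.03% had all of them above, beside 0 of the 10. The choice of genes used this contrast, so nothing is read from these counts. All 10 genes passed the filter on low values. Over all tested genes the median was 0.32, and 70.2% of their log2 fold changes were above 0, so a value near 0.32 is where a typical gene lay. Of the 8 other genes, 6 lay above that median.

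**Figure D1:**
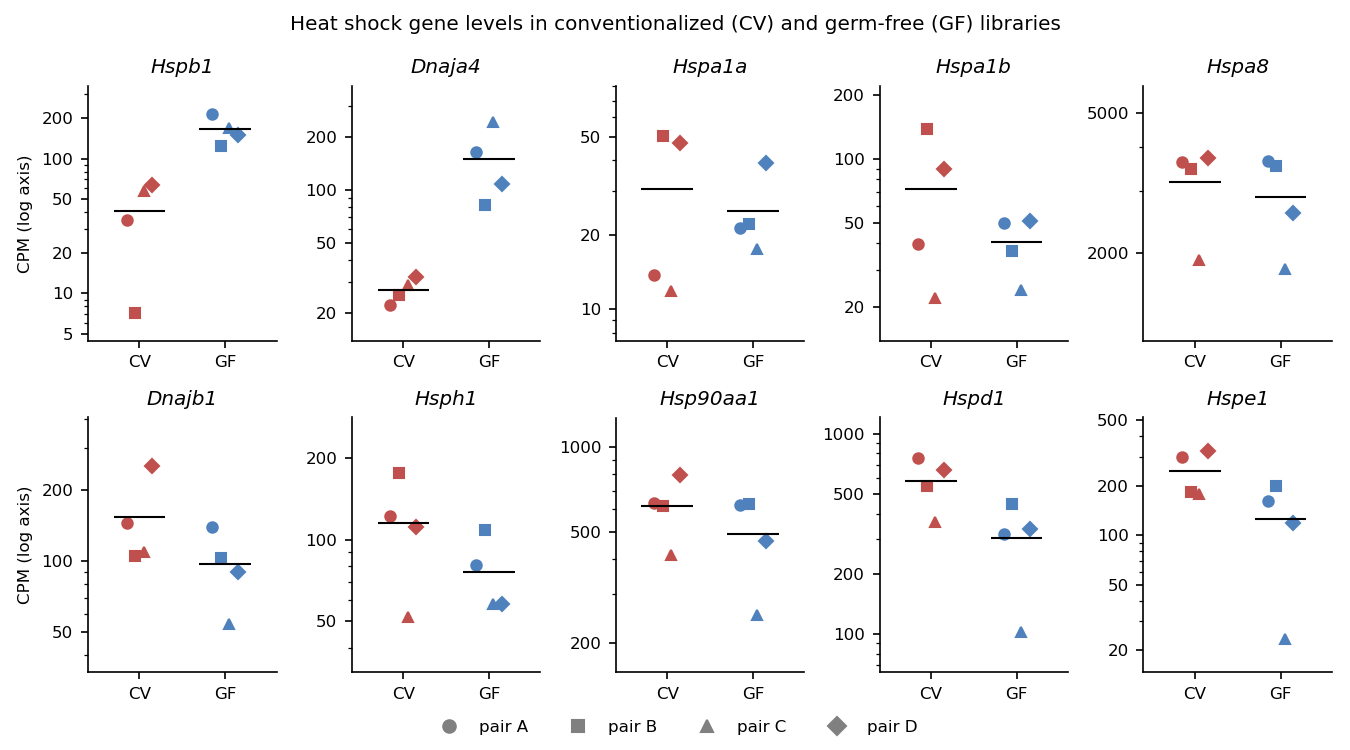
Level of each of the 10 genes in CPM (log axis) in the 4 CV (left) and 4 GF (right) libraries, with marker shapes for the littermate pairs and a bar at the group mean. Hspb1 and Dnaja4 are lower in all CV than in all GF libraries, and the groups overlap in the other 8 panels.

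Hspb1 (ENSMUSG00000004951.10, GRCm38 chromosome 5, 135887919 to 135889563) encodes the small heat shock protein HSP25, which in human is HSP27. Its level was 34.8, 7.10, 57.9 and 63.7 CPM in the CV libraries of pairs A to D, against 215.7, 124.6, 168 and 149 CPM in the GF libraries of those pairs. Every CV library lay below every GF one, and the CV library of pair B was far below the rest of its group. The means were 40.9 ± 25.7 CPM in CV and 165 ± 38.6 CPM in GF animals (SD, n = 4 each), a log2 fold change of -2.35 (SE 0.54), or 5.11-fold lower. Within pairs the log2 differences ran from -4.04 in pair B to -1.22 in pair D. Without the CV library of pair B the log2 fold change was -1.67. On an approximate read scale (deposited value divided by the smallest step of the library) Hspb1 had 74 to 1690 reads per library. Of its 100-base transcript stretches 80.3% also occur in another gene, in the pseudogene Hsp25-ps1 (0 to 4.85 CPM) and in Gm9817 (0 to 0.577 CPM), so some of its reads may have been counted there.

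Dnaja4 (ENSMUSG00000032285.15, chromosome 9, 54698873 to 54716315) encodes a J-domain co-chaperone of the DNAJA class, which activates HSP70 in the cytosol. Its level was 22.2, 25.3, 28.7 and 31.9 CPM in the CV libraries of pairs A to D, against 164, 82.0, 242 and 108 CPM in the GF libraries. The CV values were close together, with the highest 1.44 times the lowest, and the GF values spread 2.96 times, with pair C highest. The means were 27.0 ± 4.21 CPM in CV and 149 ± 71.0 CPM in GF animals, a log2 fold change of -2.33 (SE 0.33), or 5.04-fold lower. Pair differences ran from -3.06 in pair C to -1.68 in pair B. With a library left out the log2 fold change stayed between -2.61 and -2.06.

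The Dnaja4 value carries a limit of counting. Its end overlaps exons of Wdr61, a WD-repeat gene on the other strand, along 1581 bases (chr9:54714735-54716315), and 51.0% of all 100-base stretches of its longest coding transcript occur in Wdr61. The counting is not stated to use strand, so reads from that part cannot be told apart. Wdr61, looked up after this overlap was found, had 165.8, 120.0, 105 and 174 CPM in CV against 122, 125, 39.9 and 46.7 CPM in GF libraries. Its CV mean was above its GF mean, without passing the test (log2 fold change 0.92, SE 0.39, adjusted p = 0.159 by limma). Dnaja1, another J-domain protein of the same class, was at 239 ± 65.9 CPM in CV and 215 ± 62.0 CPM in GF libraries (log2 fold change 0.15, SE 0.34, adjusted p = 0.784 by limma).

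Enteroendocrine markers moved with both genes. Of 15 enteroendocrine markers, all tested, 11 were called lower and 0 higher in CV libraries, where 3.76% of all tested genes were called lower and 1.16% higher. Their summed level was 9096 to 23248 CPM in CV and 37874 to 89670 CPM in GF libraries, without overlap. Enterocyte markers were mixed: of 14 tested, 3 were called lower (Sis, Slc15a1 and Krt20) and 0 higher, 7 had positive and 7 negative fold changes, and the median was -0.11. Fabp2, which binds fatty acids, averaged 244 ± 230.0 CPM in CV and 144 ± 112 CPM in GF libraries. Its higher CV mean rested on the CV library of pair A, at 584.6 CPM. The Fabp2 level in the CV libraries of pairs B to D was 94.43, 117.1 and 179.1 CPM, within the GF range of 33.74 to 295.8 CPM. The enterocyte sums overlapped only through the CV library of pair A, at 4977 CPM. The CV libraries of pairs B to D had 1534, 1804 and 2246 CPM, against 2623 to 6313 CPM in GF libraries. None of the markers in either list was at 0 in every library. Summed markers of stem cells were 5423 to 10617 CPM in CV and 961 to 5548 CPM in GF libraries. The part of these cell types in the Hspb1 and Dnaja4 values was not tested. In bulk libraries, fewer cells of a type and less RNA per cell cannot be told apart.

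The constitutive HSP70 was the most abundant of the 10. Hspa8 (ENSMUSG00000015656.16, chromosome 9, 40800984 to 40810087), the housekeeping HSC70 that also uncoats clathrin vesicles, was at 3635, 3458, 1912 and 3722 CPM in the CV libraries of pairs A to D and at 3646, 3521, 1800.1 and 2599 CPM in the GF libraries. The groups overlapped almost fully, and pair C was lowest in both. The log2 fold change was 0.14 (SE 0.42) and its sign turned to -0.09 with scaling to library size only. Processed pseudogenes copy much of its transcript. The most similar in the table, Gm15459, holds 58.5% of the 100-base stretches of Hspa8 and had 54.8 to 137.8 CPM. Over all other genes 86.3% of these stretches are shared, so some Hspa8 reads may have been counted elsewhere. This limit also holds for the ratios to Hspa8 below.

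Ratios to Hspa8 within a library do not depend on the scaling between libraries. Hspb1 signal was 0.205 to 3.03% of Hspa8 signal in CV libraries and 3.54 to 9.35% in GF libraries. Dnaja4 signal was 0.611 to 1.501% of Hspa8 signal in CV and 2.33 to 13.5% in GF libraries. Hspd1 signal ran the other way, at 15.8 to 20.8% in CV and 5.74 to 12.9% in GF libraries. The ranges of these 3 ratios did not overlap between groups, while those of Hspe1 did, at 5.29 to 9.35% in CV and 1.31 to 5.69% in GF libraries. How many of all genes have a ratio to Hspa8 without overlap was not computed, so nothing is read from this. Ratios of the remaining members to Hspa8 are not given.

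**Figure D2:**
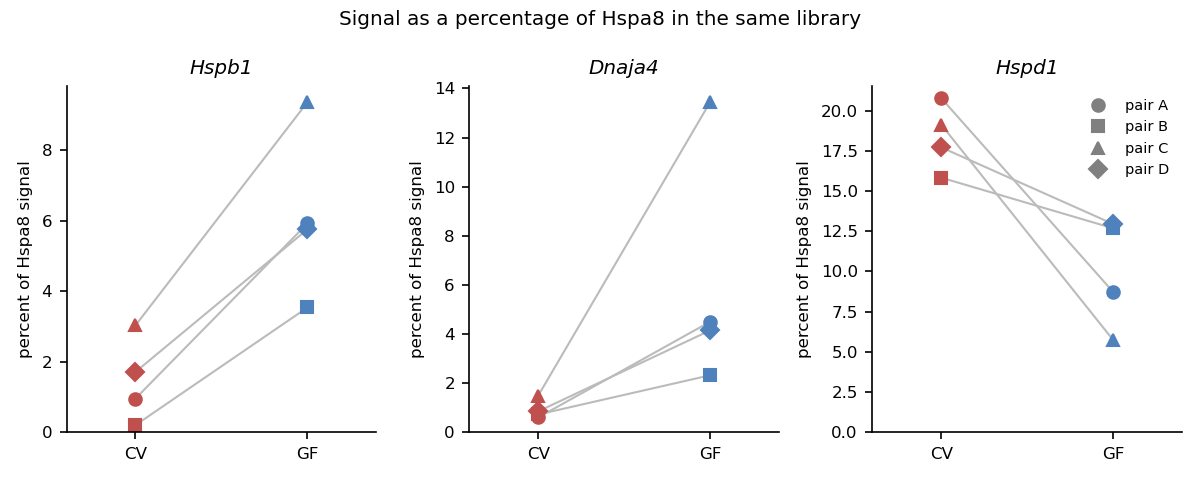
Signal of Hspb1, Dnaja4 and Hspd1 as a percentage of the Hspa8 signal in the same library, for CV and GF libraries, with a line joining the littermates of each pair. In all 4 pairs the Hspb1 and Dnaja4 percentages are lower, and the Hspd1 percentage higher, in the CV animal.

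The stress-inducible HSP70 genes varied more among animals than between groups. Hspa1a and Hspa1b (chromosome 17, 34969190 to 34972156 and 34956436 to 34959238) are neighbours whose coding sequences differ at 8 bases apart from a gap of 3 bases. Of the 100-base stretches of the Hspa1a transcript 47.1% occur in Hspa1b, so the division of reads between them is uncertain. Hspa1b was at 39.5, 138.3, 22.1 and 89.4 CPM in the CV libraries of pairs A to D, against 50.03, 36.9, 24.1 and 51.1 CPM in the GF libraries. Hspa1a was at 13.7, 50.2, 11.8 and 47.2 CPM in CV, against 21.3, 22.2, 17.4 and 38.9 CPM in GF libraries. The CV libraries of pairs B and D were high for both genes and those of pairs A and C were below the GF range for Hspa1a. The sum of the 2 genes, which does not depend on how reads were divided between them, was 103 ± 72.3 CPM in CV and 65.5 ± 20.4 CPM in GF animals. The log2 fold change was 0.56 (SE 0.48) for Hspa1b and 0.07 (SE 0.47) for Hspa1a, which became -0.16 with scaling to library size only and ran from -0.26 to 0.42 with a library left out. Pair differences took both signs in both genes.

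The partners of HSP70 and HSP90 lay near or above the median of all genes. Dnajb1 (HSP40, ENSMUSG00000005483.9), the main J-domain partner of inducible HSP70, was at 145, 105.0, 109 and 252.9 CPM in CV and at 140.0, 103, 54.2 and 90.1 CPM in GF libraries. It was higher in the CV animal of all 4 pairs, but in pairs A and B by log2 differences of only 0.05 and 0.03, and its log2 fold change was 0.64 (SE 0.36). Hsph1 (HSP110, ENSMUSG00000029657.15), the nucleotide exchange factor, was at 122, 176, 52.0 and 111 CPM in CV and at 80.5, 109, 57.8 and 58.0 CPM in GF libraries. Its groups overlapped through pair C, and the log2 fold change was 0.52 (SE 0.37). Hsp90aa1 (the stress-inducible cytosolic HSP90, ENSMUSG00000021270.13) was at 631, 618, 413 and 798 CPM in CV and at 621, 628, 252 and 462 CPM in GF libraries. Pairs A and B were level and pairs C and D higher in the CV animal (log2 fold change 0.38, SE 0.39). Of the 100-base stretches of the Hsp90aa1 transcript 47.55% also occur in other genes, so some of its reads may have been counted there.

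The mitochondrial chaperonin genes had the highest fold changes of the 10. Hspd1 (HSP60, ENSMUSG00000025980.14, chromosome 1, 55077835 to 55088243) forms the folding chamber. It was at 755, 547, 366 and 659 CPM in the CV libraries of pairs A to D, against 318, 446.5, 103 and 336 CPM in the GF libraries. It was higher in the CV animal of each pair, while the CV library of pair C lay below the GF library of pair B. Hspe1 (HSP10, ENSMUSG00000073676.4, chromosome 1, 55088132 to 55091307) is the lid of that chamber. It was at 301, 183, 179 and 324 CPM in CV, against 162, 200.2, 23.5 and 118 CPM in GF libraries, with pair B alone higher in the GF animal. The log2 fold changes were 1.08 (SE 0.45) for Hspd1 and 1.28 (SE 0.55) for Hspe1. Without the GF library of pair C, the lowest for both, they were 0.63 and 0.60, against a median of 0.22 over all genes. Hspd1 signal was 1.96 to 4.39 times Hspe1 signal over the 8 libraries, highest in that library. Of the 100-base transcript stretches 26.9% of Hspd1 and 22.4% of Hspe1 also occur in other genes.

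**Figure D3:**
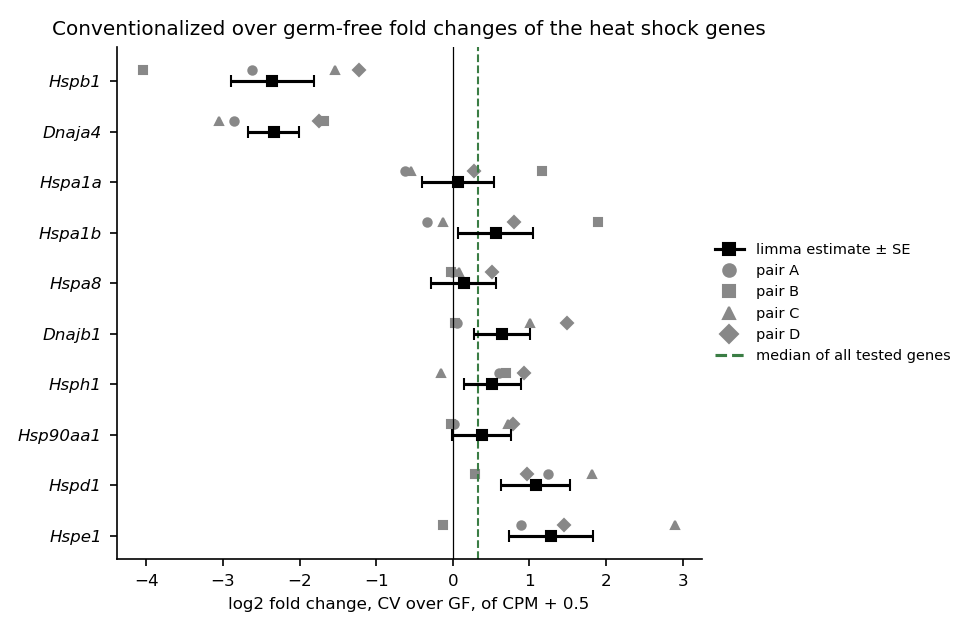
Log2 fold changes of the 10 genes, CV over GF, as limma estimates with SE (squares) and as differences within each littermate pair (grey markers); the dashed line is the median of all tested genes, 0.32. Hspb1 and Dnaja4 lie near -2.3, and the other 8 lie between 0.07 and 1.28.

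Set per kilobase of the longest coding transcript, so that genes can be compared, the order of levels differed between groups. In CV libraries the order was Hspa8 (1329 ± 357 CPM per kilobase), Hspe1 (319 ± 99.0), Hspd1 (240.1 ± 69.0), Hsp90aa1 (187 ± 48.1), Dnajb1 (51.1 ± 23.0), Hspb1 (43.95 ± 27.7), Hsph1 (30.3 ± 13.4), Hspa1b (25.8 ± 18.7), Hspa1a (10.4 ± 7.01) and Dnaja4 (8.998 ± 1.4003). Only the steps below Hspa8 and below Hsp90aa1 were larger than the larger SD of the neighbours. In GF libraries Hspb1 stood second of the 10 (177 ± 41.5 CPM per kilobase) after Hspa8 (1208 ± 361), and Dnaja4 stood sixth (49.7 ± 23.6). Between them were Hspe1 (163 ± 98.3), Hsp90aa1 (149.6 ± 53.9) and Hspd1 (124 ± 59.2), and after Dnaja4 came Dnajb1 (32.3 ± 11.8), Hsph1 (20.1 ± 6.37), Hspa1b (14.5 ± 4.54) and Hspa1a (8.41 ± 3.21). Steps larger than the larger SD of the neighbours lay below Hspa8, Hspd1, Dnajb1 and Hspa1b, so the places from Hspb1 to Hspd1 were not set apart. The unit is CPM per kilobase for every value in these sentences, and effective transcript lengths were not used here.

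Profiles over the 8 libraries were compared as the mean absolute difference of log2(CPM + 0.5) centred on each gene's mean, over 9633 tested genes with a regular symbol. The nearest to Dnaja4 were Trpa1 (0.101), a cation channel, Rtl6 (0.122) and the somatostatin receptor gene Sstr5 (0.139), against a median of 1.33 over all genes. Trpa1 was at 10.8 ± 2.94 CPM in CV and 59.7 ± 31.4 CPM in GF libraries. The nearest to Hspb1 were Serpina1e (0.242) and Serpina1c (0.242), close paralogs of the alpha-1-antitrypsin family between which reads can be divided wrongly, and Mgll (0.258), a monoacylglycerol lipase. Dnaja4 ranked 270 for Hspb1, at 0.683, and Hspb1 ranked 497 for Dnaja4, against a median of 1.35 over all genes for Hspb1. The nearest to Hspa8 of all genes was Dnaja1, at 0.0529, followed by Apeh and Emc7, and Hsp90aa1 ranked 12 at 0.131. For Hsph1 the nearest were Fubp1, Spred1 and Fyttd1, at 0.171 to 0.178. Likeness among genes that were lower in the same 4 libraries follows in part from that shared difference.

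**Figure D4:**
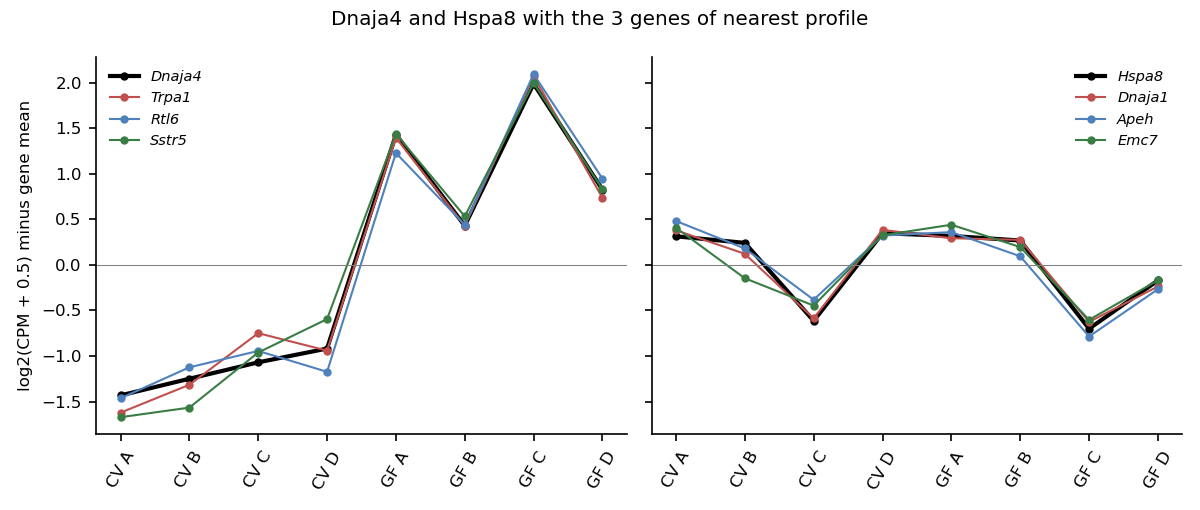
Profiles of Dnaja4 (left) and Hspa8 (right) with their 3 nearest genes, as log2(CPM + 0.5) minus the gene's mean in the 4 CV and 4 GF libraries. The Dnaja4 group is low in all CV libraries and peaks in GF C, whereas the Hspa8 group dips in CV C and GF C.

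In the fit with condition as its only term, the wider chaperone network showed no called gene. The lists hold 88 other chaperone genes, of which 70 passed the filter, and limma called 0 higher and 0 lower after Benjamini-Hochberg adjustment, beside the background of 1.16% higher and 3.76% lower. At an unadjusted p under 0.05, 13 (18.6%) were higher and 1 lower, and 19.7% and 8.12% of all genes were. That count depended on the fit. It was 33 higher (47.1%) with the littermate block, where 26.8% of all genes were higher, and 26 higher (37.1%) with upper-quartile scaling, where 24.9% of all genes were. With 1 library left out it ran from 4 to 23, and the count over all genes moved as well. It was 4 (5.71%) without the CV library of pair A or of pair D, where 931 of 9997 and 754 of 9978 genes were higher. It was 23 (32.9%) without the CV library of pair C, where 2179 of 9860 genes were higher. With array weights 4 were called higher and 1 lower, where 7.61% and 6.05% of all genes were. With the littermate pair as a block 5 were called higher (Dnajc9, Ppid, Trap1, Dnaja3 and Pih1d1) and 1 lower (Fkbp5), where 8.08% of all genes were called higher and 5.02% lower. Of the 70, 61 had a positive fold change (52 with scaling to library size only), with a median of 0.62 against 0.32 for all genes. Without the GF library of pair C and the CV library of pair A the median was 0.24, against 0.15 for all genes. Mitosis markers, of which 8 of 12 were called higher and 0 were at 0 in every library, summed to 1315 to 1665 CPM in CV and 184 to 786 CPM in GF libraries, and their part in the chaperone values was not tested.

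By role, the genes nearest to a call were these. Among 12 tested HSP70 partners (median 0.61) Hspbp1, a nucleotide exchange factor, had 0.79 (SE 0.32, adjusted p = 0.142 by limma) and Bag2, another, had 2.01 (SE 0.90, adjusted p = 0.17). Bag2 was at 17.4, 19.1, 12.7 and 27.5 CPM in the CV libraries of pairs A to D, against 15.5, 19.0, 0 and 2.66 CPM in the GF libraries, and without the GF library of pair C, where it is listed at 0, the log2 fold change was 0.92. Bag3, an HSP70 co-chaperone of selective autophagy and itself stress-inducible, was at 38.2 ± 12.0 CPM in CV and 23.2 ± 6.51 CPM in GF libraries (adjusted p = 0.187 by limma). Among 11 tested J-domain proteins (median 0.60) Dnajc9, a histone chaperone, was at 122 ± 29.1 CPM in CV and 55.3 ± 28.1 CPM in GF libraries (log2 fold change 1.25, adjusted p = 0.0666 by limma, 0.0268 with the littermate block). Dnajc2, a ribosome-associated J protein, had 0.74 (adjusted p = 0.17 by limma), and 0.44 without the GF library of pair C, where the median of all genes was 0.22.

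In the HSP90 system, with 18 tested genes (median 0.57), the immunophilins differed in direction. Ppid, a cyclophilin that binds HSP90, was at 85.5 ± 18.9 CPM in CV and 43.6 ± 13.4 CPM in GF libraries (log2 fold change 0.98, adjusted p = 0.0714 by limma, 0.0367 with the block). Fkbp5, an HSP90 co-chaperone of the glucocorticoid receptor and its target gene, was at 48.2 ± 9.69 CPM in CV and 85.8 ± 15.3 CPM in GF libraries (-0.83, adjusted p = 0.0894 by limma, 0.0467 with the block). Hsp90ab1, the constitutive HSP90, was at 2023 ± 475 CPM in CV and 1635 ± 335 CPM in GF libraries (0.30, adjusted p = 0.604 by limma).

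The 14 genes of the CCT chaperonin, which folds actin and tubulin, and of prefoldin, which delivers to it, had positive fold changes throughout (median 0.71). Cct2 (0.88, adjusted p = 0.156 by limma) and Pfdn6 (0.95, adjusted p = 0.169 by limma) had the lowest p. The 13 other mitochondrial chaperones and proteases had a median of 0.76, with Trap1, the mitochondrial HSP90, at 316 ± 76.5 CPM in CV and 149 ± 72.1 CPM in GF libraries (1.21, adjusted p = 0.0994 by limma, 0.0273 with the block). Dnaja3, a mitochondrial J protein, had 0.96 (adjusted p = 0.122 by limma, 0.0355 with the block). Hspa9, the mitochondrial HSP70, was at 532 ± 166 CPM in CV and 292 ± 119 CPM in GF libraries (0.93, adjusted p = 0.169 by limma). Without the GF library of pair C the medians were 0.37 for CCT and prefoldin and 0.43 for the mitochondrial list, against 0.22 for all genes. The log2 fold changes were then 0.53 for Cct2, 0.54 for Pfdn6, 0.81 for Trap1 and 0.56 for Hspa9.

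None of the 9 other small heat shock proteins passed the filter, so Hspb1 was the only small heat shock protein of the list at a testable level. Hspb8, the partner of Bag3, was at 0 to 5.01 CPM, and Cryab, alpha-B-crystallin, at 0 to 0.491 CPM. Hsf1, the factor that switches on heat shock genes, was at 84.4 ± 15.9 CPM in CV and 58.0 ± 14.9 CPM in GF libraries (log2 fold change 0.55, adjusted p = 0.208 by limma), and Hsf2 stayed at 1.39 to 4.82 CPM. Hsbp1, which binds heat shock factor 1, was at 152 ± 32.8 CPM in CV and 144 ± 52.5 CPM in GF libraries (0.13, adjusted p = 0.806 by limma). Hspa5, the HSP70 of the endoplasmic reticulum, was at 786 ± 286 CPM in CV and 924 ± 176 CPM in GF libraries (-0.30, adjusted p = 0.609 by limma).

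Immediate-early genes, which many stimuli and cell handling induce quickly, were read beside the inducible chaperones. Of 20 tested, 0 were called higher and 0 lower by limma, beside the 1.16% and 3.76% of all tested genes. At an unadjusted p under 0.05, 0 were higher and 3 lower, beside 19.7% and 8.12% of all genes, and their median log2 fold change was -0.38. The lower ones numbered 7 when pairs were fitted as a block, 7 when scaled to library size only and 7 without the CV library of pair D, where 8.65%, 12.0% and 7.56% of all genes were lower. The 3 were Dusp1 (-1.61), Klf2 (-1.32) and Klf4 (-1.29), at adjusted p = 0.0854, 0.102 and 0.104 by limma and 0.0204, 0.0329 and 0.0325 with the littermate block. Without the CV library of pair B the Klf2 value was -0.78. The 20 genes summed to 6212 to 16922 CPM in CV and 11817 to 15429 CPM in GF libraries. The CV library of pair B, lowest for Hspb1, was also lowest in this sum, and that of pair D, highest for Hspb1 in its group, was highest. Dnajb1 was also lowest of its group in the CV library of pair B, at 105.0 CPM. Hspa1a, Hspa1b and Hsph1 were highest of the group there, at 50.2, 138.3 and 176 CPM, and Hsp90aa1 lay between. The part of cell handling in the heat shock values was not tested.

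**Figure D5:**
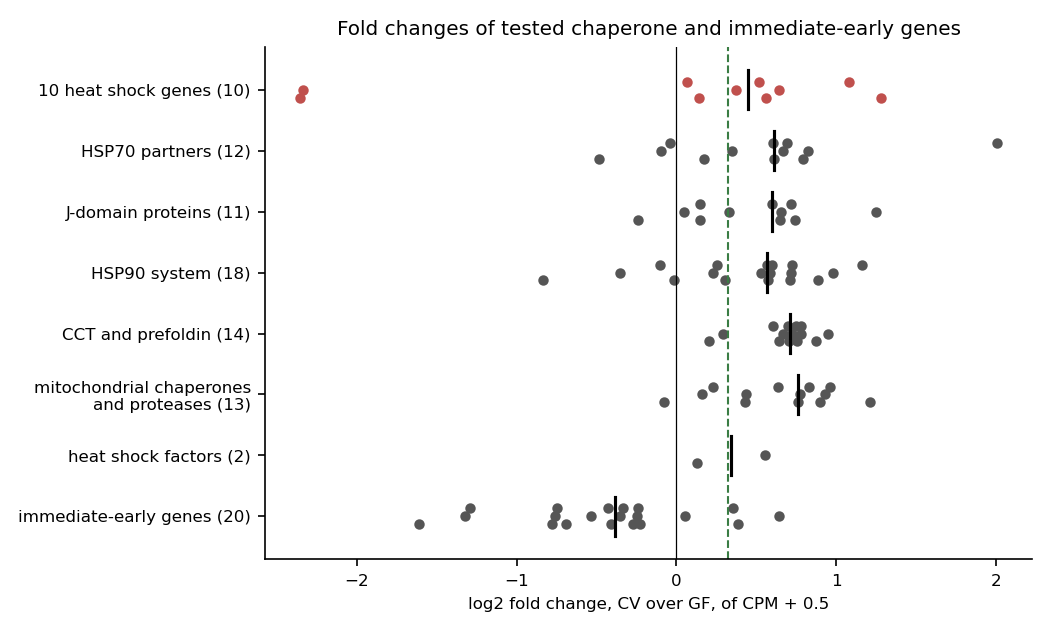
Log2 fold changes, CV over GF, of the 10 heat shock genes (red) and of the tested members of each other list (grey), with black bars at list medians and a dashed line at the median of all tested genes, 0.32. The chaperone list medians lie between 0.34 and 0.76, and the immediate-early median is -0.38.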

How the data were processed

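RNA from 8 sorted jejunal libraries, 4 conventionalized and 4 germ-free, was sequenced by the authors as 100 bp single-end reads from 10 ng of total RNA. Per the submitters' processing notes, the tools were DESeq2 1.12.4, R 3.3.1, STAR 2.4.2a and Trimmomatic 0.36, with the build mm10; the series text adds Salmon for quantification. What the authors deposited is a normalized signal. Among low values of genes with 1 annotated transcript 99.8% were multiples of a library's smallest step (tolerance 0.02), and 26.6% for genes with several, so tests for counts were not used.

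Library totals were adjusted by TMM (trims of 30% and 5%) to give CPM, and genes reaching 10 CPM in 4 or more libraries were fitted as log2(CPM + 0.5) with limma 3.58.1 in R 4.3.3 (trend, robust), condition as the only term, n = 4 animals per group, with two-sided p-values adjusted by Benjamini-Hochberg and called under 0.05. The pseudocount shrinks fold changes of low genes. CPM carries no depth per gene, and reads without molecular identifiers are not independent molecules. The procedure was tested on simulated data. Symbols came for 48058 genes from GENCODE M21 (GRCm38). Littermate pairs are given by the labels and pair the libraries by design. The correlation of deviations from the group means was 0.14, -0.16, 0.31 and -0.01 in pairs A to D. The genes and lists were chosen with earlier results of these data known. Named genes were the 10 members, up to 6 called members of each list or otherwise the 2 with the lowest p, 8 fixed chaperone genes and the 3 nearest profiles of 4 members. Others were named after their values were seen: Wdr61, Pih1d1, Cryab, Dusp1, Klf2, Klf4, Sis, Slc15a1, Krt20, Fabp2, Sox9, Hsp25-ps1, Gm9817 and Gm15459.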

Additional observations from a re-analysis of the deposited data

Results flagged for a closer look

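Hspa8 was far lower in the conventionalized animal of pair C than in the others of that group, at 1912 CPM against 3458 to 3722 CPM in the other 3. On the log2 scale its gap to the nearest library was 0.89 of the range of the group, above Dixon's critical value for 4 samples. Of 20 groups examined (10 genes in 2 conditions) this was the only one, and chance alone gives about 1 in 20.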

How the results depend on the processing

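Under 18 alternatives the log2 fold change of Hspb1 ran from -2.72 to -1.67 and that of Dnaja4 from -2.61 to -1.97. Each moved by less than the pooled SD within groups, 1.03 for Hspb1 and 0.51 for Dnaja4 on the log2 scale. Every other member also moved by less than its own SD, so this does not set Hspb1 and Dnaja4 apart. All 18 values were positive for Hspa1b, Dnajb1, Hsph1, Hsp90aa1, Hspd1 and Hspe1, while 4 of 18 were negative for both Hspa1a and Hspa8. Calls were less stable. Other chaperone genes called higher numbered 0 in the fit as reported, 1 with library size only, 2 with upper-quartile scaling, 4 with array weights, 5 with the littermate pair as a replicate block, 1 without the 2 libraries that stood apart and 0 to 3 with 1 library left out. Those called lower numbered 1 with library size only, array weights or the block, and 0 to 1 with 1 library left out. Each of the single lower calls was Fkbp5. Over all genes, 117 were called higher and 378 lower, against 812 and 505 with the block and 765 and 608 with array weights. Higher calls numbered 263 with upper-quartile scaling, 45 with no filter and 235 without the 2 libraries that stood apart, and 14 to 410 with 1 library left out, where lower calls numbered 151 to 372. The cause of these changes was not tested. The median log2 fold change of all genes was 0.32 with TMM and 0.09 with library size only.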

Other observations

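Within the conventionalized group the heat shock genes did not rank the animals alike. The library of pair B held the lowest Hspb1 level (7.10 CPM) and the highest Hspa1a, Hspa1b and Hsph1 levels (50.2, 138.3 and 176 CPM), and the highest Hspb1 level was 8.97 times the lowest there, against 1.73 times in the germ-free group. The library of pair C held the lowest Hspa1a, Hspa1b, Hspa8, Hsph1, Hsp90aa1, Hspd1 and Hspe1 levels of the conventionalized group, and pair C was lowest for the same 7 genes among germ-free libraries. Serpina1c averaged 124 ± 79.8 CPM in conventionalized animals, against 654 ± 219.5 CPM in germ-free animals, and Mgll 49.4 ± 25.6 CPM, against 190.8 ± 49.4 CPM (SD, n = 4 each). Both were lowest in the conventionalized library of pair B, as was Hspb1. Serpina1c and Mgll were picked for profiles near that of Hspb1 over these same libraries, so this likeness follows from the choice.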
